A study of Mus musculus with 30 samples.

Results

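Spinal gray matter was compared between the subacute and the chronic phase after cortical stroke, by setting the 5 mice taken at 42 days post-injury (dpi) directly against the 5 taken at 14 dpi. These 10 animals are those whose labels give 14 or 42 days, out of 29 animals with values and 30 labelled ones. All were adult C57BL/6 mice, given in the study's methods as females of 2 to 3 months for the transcriptome, in which a photothrombotic lesion (light on the skull after the dye Rose Bengal) had destroyed the sensorimotor cortex of 1 side. The tissue was the intermediate gray matter of segments C5/C6 on the side that had lost its crossed corticospinal input, trimmed by blade from mice perfused with Ringer's solution. The remaining animals were 5 sham-operated mice (named Ctrl in the labels), 4 at 4 dpi, 5 at 7 dpi and 5 at 28 dpi, and they entered the fit for the spread between animals. No mouse was sampled more than once, so each time point is a separate set of animals, and tissue trimmed by hand holds neurons, glia, vessels and some white matter in proportions that were not measured. In such bulk tissue, fewer cells of a type and less RNA per cell cannot be told apart.

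After a cortical stroke the corticospinal axons of the lesioned hemisphere degenerate, and their spinal targets lose input. In the weeks that follow, glia clear the debris, axons from the spared hemisphere can sprout across the midline, and new contacts are formed and pruned. Synaptic scaffolds, adhesion molecules such as protocadherins, ion channels and chromatin regulators are among the gene classes that neurons use to build and hold such contacts, while myelin, mitochondrial and ribosomal genes report on the upkeep of cells and axons.

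Each value below is the authors' normalized CPM (reads of a gene scaled to library size), a level per gene and not per base, so that levels of different genes are not compared. Differences are log2 fold changes of value + 0.5 from limma, 42 dpi minus 14 dpi, with Benjamini-Hochberg adjustment over all 16995 genes, and adding 0.5 shrinks the fold change where values are low. Values in single animals are listed in the order A5-1, A5-3, A5-4, A6-2, A6-3 for 14 dpi and A1-1, A1-2, A1-3, A1-4, A3-4 for 42 dpi. The first part of each name is a unit in the labels whose meaning is not stated, and no unit held animals of both time points, so unit and time point cannot be told apart.

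Some features of the libraries moved with the time points or varied within them. The ribosomal transcript Rn18s-rs5, which the ribosomal depletion should remove, ranged from 32754 to 817780 at 14 dpi and from 78737 to 457302 at 42 dpi. It overlapped between the groups (exact permutation test, two-sided p = 0.595) and was at 30321 to 52929 in the sham animals. The slope of an animal's log2 values on transcript length, in log2 units per doubling of length and relative to the mean of all animals, was below 0 in every animal at 14 dpi (-0.060 to -0.023) and from -0.004 to 0.029 at 42 dpi. These slopes did not overlap (mean difference 0.063, exact permutation test, two-sided p = 0.00794, the smallest that 5 against 5 animals can give), while those of the sham animals ran from -0.058 to 0.056. The median log2 fold change accordingly ran from -0.14 in the fifth of genes with the shortest transcripts (at most 1812 bases) to 0.14 in the fifth with the longest (5112 bases and more). A slope on GC content, in log2 units per percent, also differed, with means of 0.0017 at 14 dpi and -0.0063 at 42 dpi (exact permutation test, two-sided p = 0.0238). Its ranges overlapped, at -0.0041 to 0.0049 and -0.0128 to -0.0025. The part of the length slope in the differences below was examined only by 2 alternatives, a correction of each animal's values for transcript length and GC content, and the slope itself as a covariate. With the slope as a covariate none of the genes named below was called apart from 1 predicted model, and no member of any gene list described below reached an adjusted p under 0.05, so that every other call below was lost. Because the slopes of the 2 groups did not overlap, this covariate also takes up part of the difference between the time points. Slope and time point thus cannot be told apart, and the loss of calls does not separate them. Under this covariate some fold changes shrank (Rps27a from -0.70 to -0.21) and others did not (Dbp from -0.85 to -0.92, Hist3h2ba from -0.82 to -0.90).

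**Figure D1:**
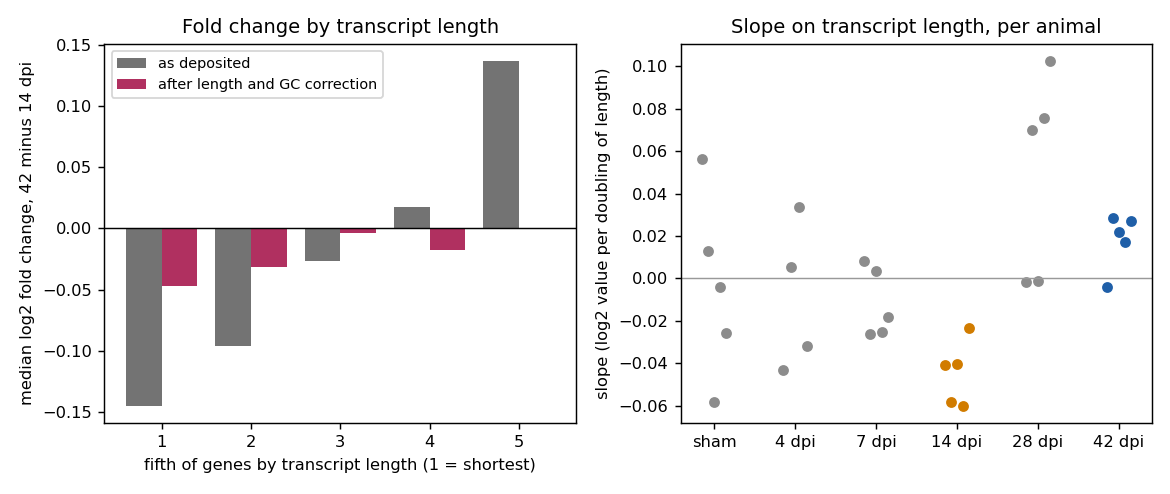
Left, median log2 fold change from 14 to 42 dpi (y axis) in 5 equal groups of genes by transcript length (x axis), as deposited (gray) and after the correction for length and GC content (red). Right, slope of log2 value on transcript length (y axis) in each animal of the 6 groups (x axis, 1 point per animal); the 5 animals at 14 dpi lie between -0.060 and -0.023 and the 5 at 42 dpi between -0.004 and 0.029.

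Between 14 and 42 dpi, 350 genes were significantly differentially expressed (SDEGs, past 1.5-fold with an adjusted p under 0.05), which is 2.06% of the genes tested. Upregulation prevailed: 285 SDEGs (1.68% of genes) were higher and 65 (0.382%) were lower at 42 dpi. Most changes were modest, with a median size of 1.61-fold in both directions, and only 12 rises and 8 falls exceeded 2-fold. Without the fold limit, 1315 genes (7.74%) were higher and 1060 (6.24%) lower at an adjusted p under 0.05. In 826 genes (4.86%) every animal at 42 dpi was above every animal at 14 dpi, and in 1080 genes (6.35%) every animal was below. The median log2 fold change over all genes was 0.003.

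The genes that rose and fell were of different kinds. Of the 285 upregulated SDEGs, 147 (51.6%) were predicted gene models or clone names, against 17.1% of all genes, and 135 (47.4%) were protein-coding, against 85% of all genes. The 65 downregulated SDEGs held 53 protein-coding genes (81.5%). Of the 692 lincRNA genes measured, 45 rose and 1 fell, and of the 601 antisense genes 41 rose and 1 fell. Because the values are not known to separate the strands, antisense transcripts and their partners cannot be told apart. The median transcript length was 1225 bases for the downregulated SDEGs, 3131 for the upregulated ones and 3233 for all genes. Values were low in the SDEGs, and at 14 dpi lowest in those that rose. The median gene had a 14 dpi mean of 1.42 among upregulated SDEGs, 5.98 among downregulated ones and 11.02 among all genes. At 42 dpi these medians were 2.64, 3.22 and 10.9. The part of low values in the difference in gene types was not tested. With the correction for length and GC content, 267 genes rose and 38 fell, 242 of the 350 SDEGs being called again in the same direction. With each animal's slope as a covariate 1 gene was called, the predicted model Gm13340 (0.97 ± 0.17, adjusted p = 0.0415), which was not among the 350 SDEGs, and 1999 genes had an unadjusted p under 0.05, against 5404 without it.

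Among named genes, the rises with no overlap between the groups were led by a pseudogene and a small RNA. The ribosomal protein pseudogene Rpl10-ps1 had values of 7.0, 0.0, 1.5, 8.8 and 0.0 at 14 dpi and 15.7, 22.1, 10.4, 12.8 and 17.4 at 42 dpi. Rn7s6, a copy of the 7S RNA of the signal recognition particle, was at 0.3, 0.2, 0.1, 0.1 and 0.2 and then at 2.0, 1.4, 0.5, 2.8 and 3.0. Rpl10-ps1 rose by 2.95 ± 0.92 (log2 fold change ± SE, limma adjusted p = 0.0337) and Rn7s6 by 1.72 ± 0.30 (adjusted p = 0.00366). At the other times Rn7s6 was at 3.82 ± 1.26 (SD, n = 5) in sham animals, 2.98 ± 1.70 (n = 4) at 4 dpi, 0.42 ± 0.179 (n = 5) at 7 dpi and 3.74 ± 1.79 (n = 5) at 28 dpi, so that it was low at 7 dpi as well. Both share sequence with other loci from which reads cannot be separated, and Rpl10-ps1 was listed at 0 in 2 animals of 14 dpi.

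Zbed6, an intronless gene for a transcriptional repressor, had values of 8.3, 3.6, 8.1, 7.2 and 7.6 at 14 dpi and of 19.4, 12.4, 13.5, 15.9 and 14.3 at 42 dpi. Its rise was 1.10 ± 0.26 (adjusted p = 0.00884). Polr2a, the largest subunit of RNA polymerase II (chr11:69733997-69758637), went from 21.2, 19.6, 13.2, 14.2 and 26.6 to 38.7, 30.5, 37.2, 32.7 and 37.0, a rise of 0.92 ± 0.17 (adjusted p = 0.00384). Nova2, a splicing regulator of neurons, had 5.6 to 12.1 at 14 dpi and 12.5 to 21.3 at 42 dpi and rose by 0.90 ± 0.17. Pom121, a membrane protein of the nuclear pore, rose by 0.87 ± 0.17, from 10 to 15.8 up to 17.6 to 35.2. In all of these the lowest animal at 42 dpi stood above the highest at 14 dpi.

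Celsr2, an adhesion receptor of the cadherin family that acts in planar cell polarity and axon guidance, was at 104.4, 106.8, 76.5, 69.7 and 134.3 at 14 dpi and at 202.6, 150.3, 240.2, 146.4 and 166.0 at 42 dpi. Its change was 0.89 ± 0.18 (adjusted p = 0.00458). Fstl4, a secreted protein of the follistatin-like family, moved from 6.3 to 8.6 up to 13.2 to 16.3 (0.93 ± 0.16, adjusted p = 0.00366). The remaining genes of the 12 largest rises were Mettl21e, a methyltransferase (0.95), Cd27, a receptor of the tumor necrosis factor family (0.90, at values of 0.4 to 2.0), and the ubiquitin ligase Neurl3 (0.83). Bsn, which belongs to the same group, is described with the synaptic genes.

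The 12 largest falls included 3 ribosomal protein sequences, Rpl15-ps3, Rps27a and Rps12-ps3. The pseudogene Rpl15-ps3 had 18.8, 22.8, 20.3, 21.7 and 23.6 at 14 dpi and 18.7, 16.9, 16.1, 0.2 and 0.0 at 42 dpi. Its fall of 2.27 ± 0.65 on the log2 scale (adjusted p = 0.0241) rested on A1-4 and A3-4, the other 3 animals at 42 dpi being just below the 14 dpi range. Hist3h2ba, a histone gene, went from 5.8, 6.9, 6.4, 5.6 and 4.2 to 2.6, 4.1, 2.2, 4.1 and 2.5 and fell by 0.82 ± 0.15 (adjusted p = 0.00366).

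Med31, a subunit of the Mediator complex, fell by 0.76 ± 0.14 from 4.8 to 7.3 down to 2.7 to 4.4. Timm13, which escorts proteins through the mitochondrial intermembrane space, was at 15.1 to 18.4 and then at 7.1 to 13.7 (-0.72 ± 0.16). S100a1, a calcium-binding protein, fell by 0.67 ± 0.16, from 22.9 to 34.0 down to 13.4 to 19.3. Zdhhc12 (-0.78), C1qtnf5 (-0.75), Ddah2 (-0.70), Rab33a (-0.69) and Rps12-ps3 (-0.66) completed the group beside Dbp and Rps27a, which are described below. Among these 12 genes, Timm13, Ddah2, Rab33a, S100a1 and Rps12-ps3 had falls under the 1.5-fold limit after the correction for length and GC content, at -0.57 to -0.54.

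**Figure D2:**
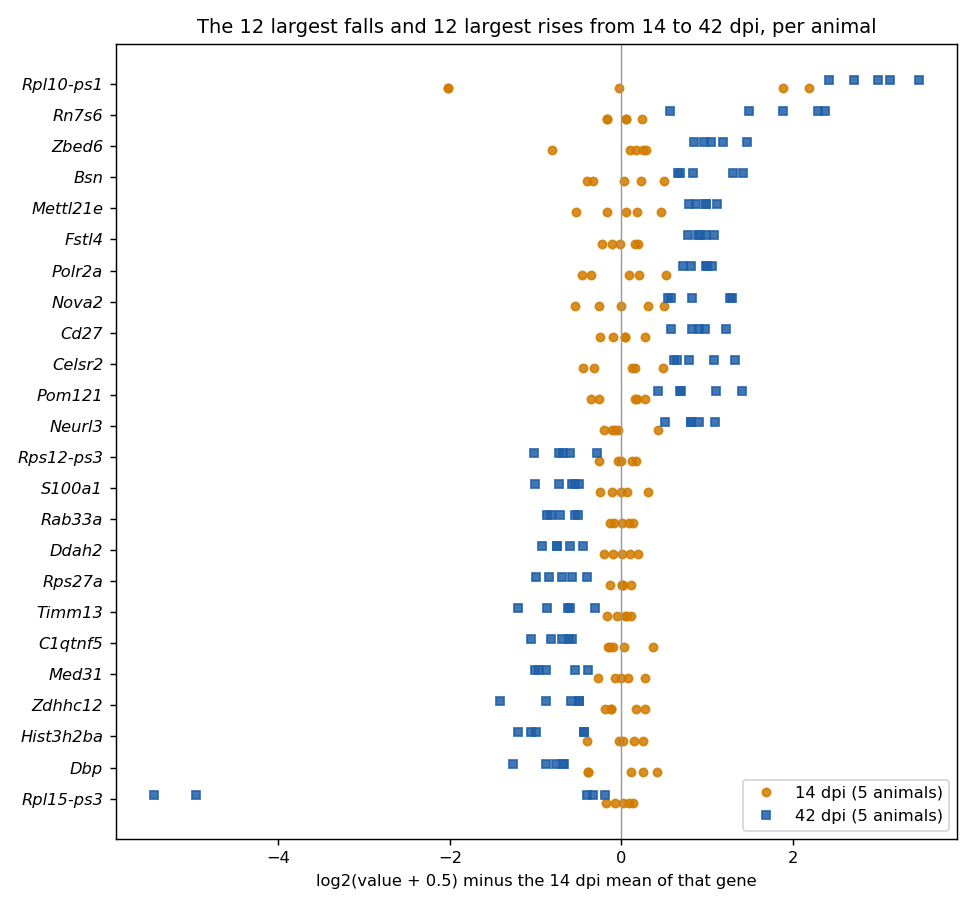
Log2(value + 0.5) of the 12 largest falls and 12 largest rises (rows) relative to the mean at 14 dpi (x axis), with 1 point per animal (circles, 14 dpi; squares, 42 dpi). The genes were selected for groups that do not overlap, and the spread within a group is widest for Rpl10-ps1 and Rpl15-ps3.

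The predicted models with the largest changes under the same conditions were 4933423P22Rik (1.14 ± 0.21), Gm10359 and Gm12671 (both 1.54 ± 0.38) among the rises and Gm12481 (-1.08 ± 0.17), Gm26712 (-0.89 ± 0.22) and Gm8206 (-0.80 ± 0.22) among the falls. Gm10359 and Gm12671, on chromosomes 5 and 4, are processed pseudogenes with identical values in all 10 animals, 29.6, 12.1, 20.5, 12.3 and 2.9 at 14 dpi and 31.4, 31.8, 59.1, 35.7 and 32.4 at 42 dpi. They are copies that share their reads and count as 1 observation.

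Presynaptic genes rose in part. Of 45 measured genes for synaptic vesicles and release, 4 (8.89%, against 2.06% of all genes) were SDEGs and all 4 rose. At an adjusted p under 0.05 without the fold limit 9 (20%, against 7.74% of all genes) were higher and 2 lower, and the median of the list was 0.10. The correction for length and GC content left 7 higher and 1 lower with a median of 0.03. Bsn (bassoon, chr9:108096022-108190384) and Pclo (piccolo, chr5:14514918-14863459) are the giant scaffolds of the active zone, where vesicles dock. Bsn was at 88.1, 76.7, 59.6, 56.8 and 106.3 at 14 dpi and at 187.0, 119.8, 201.9, 121.1 and 134.7 at 42 dpi. Its change of 0.98 ± 0.20 (adjusted p = 0.00454) corresponds to 1.97-fold.

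Pclo went from 188.7, 169.8, 132.3, 134.1 and 209.9 to 276.5, 225.1, 296.0, 263.9 and 254.7 (0.67 ± 0.13, adjusted p = 0.00425). The synapsins coat vesicles and tether them to each other. Syn1 was at 58.4, 59.8, 50.4, 47.4 and 74.2 and then at 91.4, 77.0, 112.0, 91.3 and 85.3 (0.66 ± 0.14, adjusted p = 0.00637), and Syn3 at 17 to 23.7 and then at 28.9 to 36.4 (0.66 ± 0.13, adjusted p = 0.00445). None of these genes overlapped between the groups. Bsn, Syn1 and Syn3 remained SDEGs with the correction for length and GC content (0.78, 0.74 and 0.59), whereas Pclo, at 0.34, was below the fold limit.

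Postsynaptic genes had 1 SDEG (4.76%, against 2.06% of all genes). Of 21 scaffold and adhesion genes of the postsynapse and its partners, 18 were higher at 42 dpi, and the median was 0.23. At an adjusted p under 0.05, 9 (42.9%, against 7.74% of all genes) were higher and none lower. The SDEG was Shank1, a scaffold of excitatory synapses, with 40.1, 42.7, 31.9, 30.2 and 58.5 at 14 dpi and 75.1, 53.0, 83.5, 60.0 and 53.7 at 42 dpi. A6-3 lay within the later range, and the change was 0.69 ± 0.16 (adjusted p = 0.00906; exact permutation test, two-sided p = 0.0238). The presynaptic adhesion molecule Nrxn3 stayed below the 1.5-fold limit at 0.46 ± 0.10 but did not overlap, with 144.3 to 187.4 at 14 dpi and 218.9 to 259.0 at 42 dpi. Shank2 had 16.9 to 19.0 and 18.9 to 31.9 (0.47 ± 0.11). After the correction for length and GC content, 5 of the 21 genes were higher at an adjusted p under 0.05, the median was 0.10 and Shank1, at 0.58, was below the fold limit. With the slope on transcript length as a covariate the median was 0.09 and no gene was called.

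Receptors and channels held SDEGs at about the share of all genes (2.06%). Among 55 receptors for glutamate, GABA, glycine and acetylcholine 1 (1.82%) was an SDEG, and the median was 0.09. At an adjusted p under 0.05, 9 (16.4%, against 7.74% of all genes) were higher and none lower. Grin2b, the GluN2B subunit of NMDA receptors, had 94.9, 90.2, 78.1, 73.0 and 106.3 at 14 dpi and 141.6, 118.6, 140.1, 125.9 and 139.9 at 42 dpi (0.60 ± 0.11, adjusted p = 0.00384). With the correction for length and GC content this became 0.23, below the fold limit, and the list had 6 genes higher and 3 lower at an adjusted p under 0.05 with a median of -0.01. The GABA-A subunit gene Gabrb1, at 58.8 to 68.9 and then at 74.3 to 80.8, differed by 0.31 ± 0.08, and the kainate receptor gene Grik5 by 0.47 ± 0.12. With the same correction Gabrb1, at 0.03, was not called (adjusted p = 0.785).

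Of 73 potassium channel genes 1 (1.37%) was an SDEG. At an adjusted p under 0.05, 11 (15.1%, against 7.74% of all genes) were higher and 3 (4.11%, against 6.24%) lower. After the correction for length and GC content these were 5 and 1, and the median moved from 0.05 to -0.004. Kcnj6, the GIRK2 channel opened by inhibitory G protein-coupled receptors, rose from 7.0, 6.7, 5.0, 6.1 and 7.8 to 11.7, 10, 11.4, 11.3 and 13.2. Its change of 0.78 ± 0.13 (adjusted p = 0.00366) was 0.77 after the correction for length and GC content. The axonal channel Kcna2 had 554.8 to 685.6 and then 757.0 to 831.3 (0.38 ± 0.08), and Kcnq3, an M-current channel, differed by 0.42 ± 0.10, both losing their call with the correction (adjusted p = 0.0704 and 0.0752). Kcnn1, a calcium-activated channel, went the other way, from 13 to 16.3 down to 10.7 to 11.6 (-0.37 ± 0.08, adjusted p = 0.00728). None of the 33 sodium and calcium channel genes was an SDEG by limma, with 11 at an unadjusted p under 0.05. At an adjusted p under 0.05, 8 (24.2%, against 7.74% of all genes) were higher, and 5 after the same correction. Among the 8 were Scn8a (0.45 ± 0.10), Cacna1c (0.46 ± 0.09) and Cacna1i (0.58 ± 0.14).

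The clustered and other protocadherins, homophilic adhesion molecules that give neurons surface identities, had the highest median among the gene families and pathways with 20 or more measured members. Of 68 measured genes 67 had a higher mean at 42 dpi, and 3 (4.41%, against 2.06% of all genes) were SDEGs. At an adjusted p under 0.05, 21 (30.9%, against 7.74% of all genes) were higher and none lower, and the median was 0.30. Pcdhgb2 had 6.8, 4.5, 4.6, 6.3 and 3.4 at 14 dpi and 8.1, 6.3, 8.1, 9.3 and 8.2 at 42 dpi (0.62 ± 0.15, adjusted p = 0.00921; exact permutation test, two-sided p = 0.0238), and the other SDEGs, named after their values were seen, were Pcdhgb5 (0.63) and Pcdha8 (0.62). Pcdhgb4 did not overlap, with 5.8 to 8.9 and 9.7 to 11.4 (0.49 ± 0.12), nor did Pcdhb14, with 10.2 to 12.7 and 13.4 to 16.2 (0.42 ± 0.10). The members are not independent, because genes of the gamma cluster such as Pcdhgb2 (chr18:37689828-37841873) and Pcdhgb4 (chr18:37720369-37841870) share their last exons and their reads could be split between them. After the correction for length and GC content the median was 0.19 and 10 genes were higher at an adjusted p under 0.05. Pcdhb14 was among those that lost their call (adjusted p = 0.105). With the slope as a covariate the median was also 0.19, but no gene was called.

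Part of the chromatin regulators rose. Of 64 measured writers, readers, remodelers and corepressors 7 (10.9%, against 2.06% of all genes) were SDEGs, all higher at 42 dpi. At an adjusted p under 0.05, 23 (35.9%, against 7.74% of all genes) were higher and none lower, and the median was 0.16. Kmt2a, a histone H3 lysine 4 methyltransferase (chr9:44803355-44881296), had 69.9, 63.0, 50.4, 53.3 and 85.4 at 14 dpi and 113.2, 91.6, 128.5, 99.8 and 101.4 at 42 dpi. It rose by 0.74 ± 0.14 (adjusted p = 0.00384), without overlap. Kmt2d, of the same enzyme family, had 38.5, 41.3, 23.5, 25 and 55.9 and then 82.5, 53.6, 99.2, 51.7 and 61.6 (0.94 ± 0.21, adjusted p = 0.00832). Its groups overlapped by A6-3, the animal with the most Rn18s-rs5 at 14 dpi. The acetyltransferase gene Crebbp, at 50.8 to 74.0 and then at 82.7 to 99.2, differed by 0.56 ± 0.11 and stayed below the fold limit. With the correction for length and GC content, the list had 11 genes higher and 3 lower at an adjusted p under 0.05, with a median of 0.06, Kmt2d remained an SDEG (0.70) and Kmt2a, at 0.47, did not. With the slope as a covariate the median was 0.05 and no gene was called.

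In the opposite direction, genes for the nuclear-encoded subunits of oxidative phosphorylation were lower at 42 dpi in every case measured. All 77 had negative log2 fold changes (-0.59 to -0.14, median -0.38). Of these, 37 (48.1%, against 6.24% of all genes) were lower at an adjusted p under 0.05, although none reached the fold limit as an SDEG. In 52 of the 77 the groups did not overlap, against 6.35% of all genes. Atp5a1, the alpha subunit of ATP synthase, had 647.5, 704.0, 722.5, 705.1 and 628.4 at 14 dpi and 595.1, 618.7, 545.0, 555.0 and 580.2 at 42 dpi (-0.23 ± 0.06, adjusted p = 0.00968). Ndufv3, of complex I, differed by -0.49 ± 0.13.

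The 13 protein genes of the mitochondrial genome had a median of -0.23, all below 0. The only SDEG among them was mt-Co2, a subunit of cytochrome c oxidase, with 448.5, 666.8, 679.5, 380.8 and 435.1 at 14 dpi and 402.4, 425.4, 318.7, 259.2 and 265.0 at 42 dpi. Animals of both time points overlapped, and the change was -0.63 ± 0.20 (adjusted p = 0.0329; exact permutation test, two-sided p = 0.0397). It was not called after the correction for length and GC content (limma adjusted p = 0.0575), and with the slope as a covariate the median of the 13 genes was 0.23.

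Cytosolic ribosomal protein genes showed the lowest median among the larger lists, at -0.41. Of 81 measured genes 80 were lower at 42 dpi, 24 (29.6%, against 6.24% of all genes) at an adjusted p under 0.05 and none higher, and 41 did not overlap (50.6%, against 6.35% of all genes). Both SDEGs fell. Rps27a, which encodes a ribosomal protein fused to ubiquitin (chr11:29545846-29548109), had 63.2, 57.3, 63.3, 68.4 and 63.7 and then 47.8, 35.0, 38.9, 42.3 and 31.5, a change of -0.70 ± 0.16 (adjusted p = 0.00860). Rps7 went from 38.0, 37.9, 37.2, 40.0 and 34.0 to 28.3, 20.9, 20.9, 22.8 and 25.2 (-0.66 ± 0.16, adjusted p = 0.0106). Rplp0, of the ribosomal stalk, differed by -0.43 ± 0.10 and Rpl22 by -0.35 ± 0.09, neither with overlap. These genes have many pseudogene copies, so that reads could be divided among near-identical sequences.

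Subunits of the proteasome, which degrades ubiquitinated proteins, had a median of -0.28. At an adjusted p under 0.05, 16 of 46 (34.8%, against 6.24% of all genes) were lower and none higher, with no SDEG. Psmd13 was at 30.0 to 37.2 and then at 22.5 to 28.0 (-0.37 ± 0.08, adjusted p = 0.00560). Psmd8 was at 40.2 to 49.4 and then at 32.1 to 34.6 (-0.43 ± 0.09), and Psma7 at 39.9 to 43.9 and then at 27.3 to 34.9 (-0.48 ± 0.12). The transcripts of all 3 lists are short, with medians of 1129 bases for oxidative phosphorylation, 1049 for ribosomal proteins and 1895 for the proteasome. With the correction for length and GC content Rps7, at -0.58, was just under the fold limit, and the medians of the lists were -0.30, -0.31 and -0.21, and 22, 13 and 13 genes were lower at an adjusted p under 0.05. With the slope on transcript length as a covariate the medians were 0.03, 0.03 and -0.01, and no gene was called. That slope was computed from the same values, which include these genes.

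**Figure D3:**
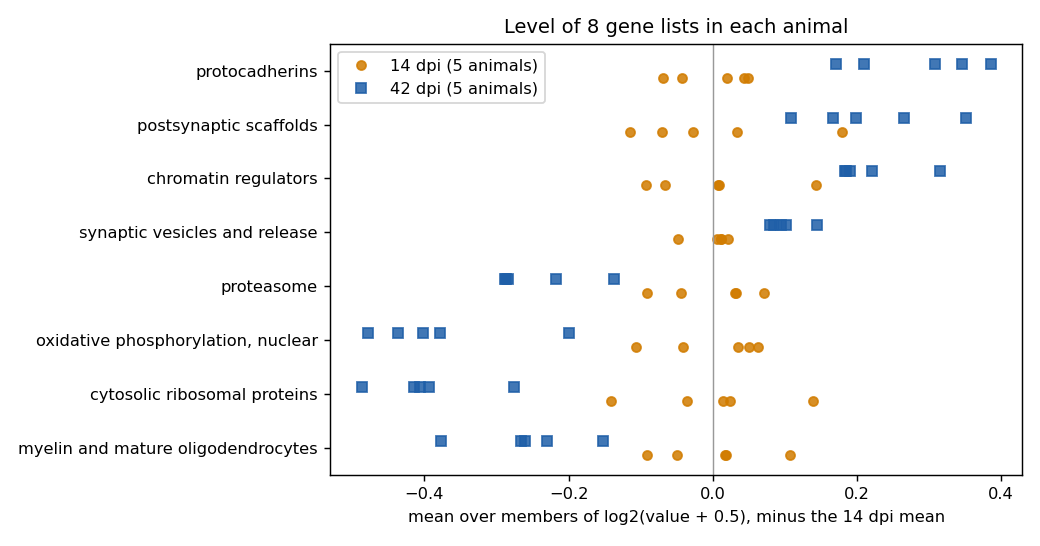
Level of 8 gene lists in each animal, as the mean over members of log2(value + 0.5) relative to the 14 dpi mean (x axis; circles, 14 dpi; squares, 42 dpi; 1 point per animal). The protocadherins run from -0.07 to 0.05 at 14 dpi and from 0.17 to 0.39 later, and the ribosomal proteins from -0.14 to 0.14 and then from -0.49 to -0.28.

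Most myelin genes had lower means at 42 dpi. Of 25 markers of mature oligodendrocytes 23 had a lower mean, no gene was an SDEG, and the median was -0.27. At an adjusted p under 0.05, 8 (32%, against 6.24% of all genes) were lower and 1 (4%, against 7.74%) higher. The summed level of the 25 genes was 8728 to 10576 at 14 dpi and 7178 to 8605 at 42 dpi, without overlap, and no marker was at 0 in all 10 animals. How much of this came from the share of white matter in the trimmed tissue was not tested. Pllp, a proteolipid of the myelin membrane, had 57.0, 70.7, 62.2, 60.5 and 54.6 and then 41.6, 46.8, 39.7, 41.6 and 41.3 (-0.52 ± 0.13, adjusted p = 0.0112). Gsn (gelsolin) had 65.7 to 91.1 and 45.7 to 59.6 (-0.52 ± 0.13), Cldn11, the tight junction protein of myelin, 114.9 to 128.6 and 85.2 to 105.7 (-0.40 ± 0.11), and Mag 279.3 to 354.1 and 233.0 to 252.8 (-0.37 ± 0.11). The 1 gene higher at an adjusted p under 0.05 was Myrf, the transcription factor that drives myelin genes, at 34.2 to 49.8 and then at 46.0 to 70.5 (0.49 ± 0.13, adjusted p = 0.0160). After the correction for length and GC content 6 genes were lower and 1 higher, with a median of -0.24, and Mag was not called (adjusted p = 0.0668). With the slope as a covariate the median was -0.10 and no gene was called.

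Enzymes of cholesterol synthesis, on which myelin growth depends, had a median of -0.22. At an adjusted p under 0.05, 8 of 23 (34.8%, against 6.24% of all genes) were lower, none as an SDEG. Pmvk (-0.41 ± 0.11), Ebp (-0.42 ± 0.11) and Fdft1, squalene synthase (-0.30 ± 0.09), did not overlap between the groups. The same number of 8 genes was lower after the correction for length and GC content, and with the slope as a covariate the median was -0.15 and none was called.

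**Figure D4:**
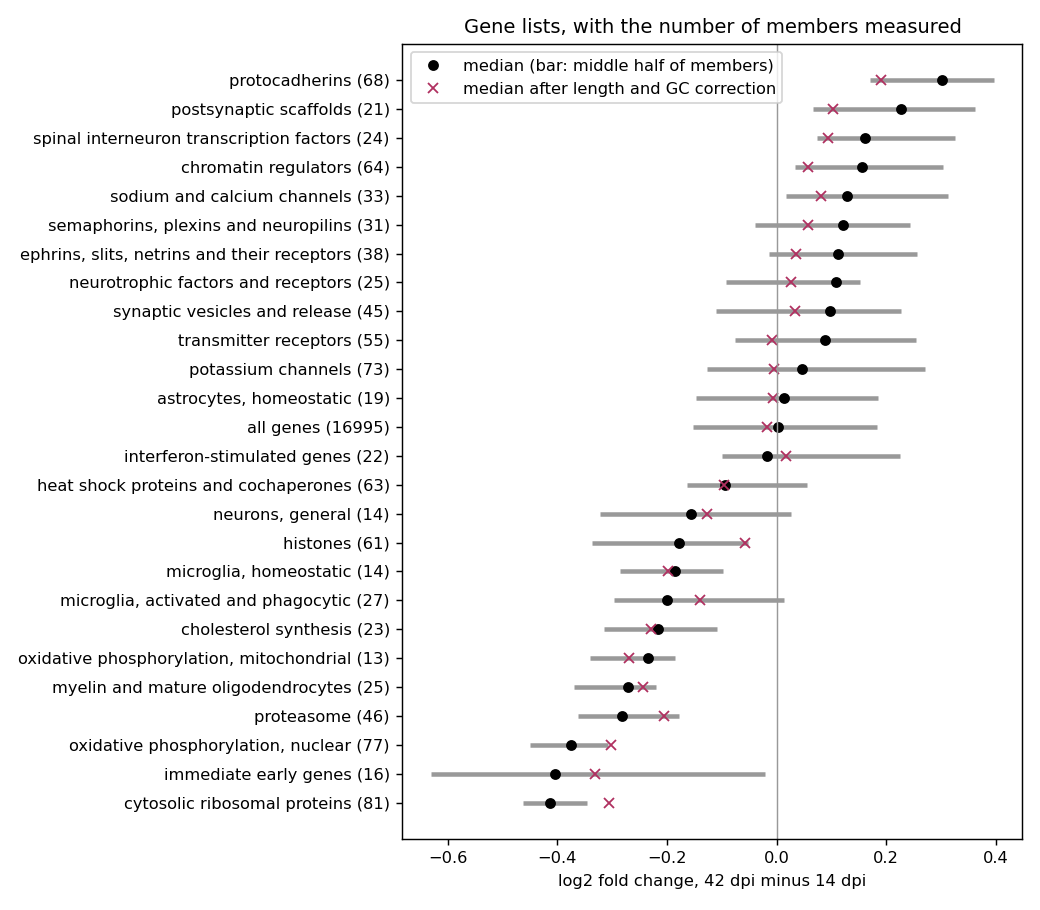
Log2 fold change from 14 to 42 dpi (x axis) for 25 gene lists and all genes (rows, number of measured members in brackets). Dots are medians, bars span the middle 50% of the members, and crosses are medians after the correction for length and GC content; the ribosomal proteins lie lowest at -0.41 and the protocadherins highest at 0.30.

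Immediate early genes, which neurons and glia switch on within minutes of stimulation or stress, had lower means at 42 dpi in 13 of 16 cases. The median of 16 genes was -0.40, and 4 (25%, against 6.24% of all genes) were lower at an adjusted p under 0.05. Of these 4, 2 were SDEGs (12.5% of the list, against 2.06% of all genes). Ier2 had 1.1, 2.4, 3.0, 3.2 and 3.2 at 14 dpi and 0.9, 1.0, 1.1, 1.4 and 1.6 at 42 dpi (-0.81 ± 0.24, adjusted p = 0.0253). Junb had 4.0, 8.2, 9.8, 9.8 and 7.4 and then 3.6, 5.2, 5.2, 4.4 and 5.5 (-0.61 ± 0.20, adjusted p = 0.0430). In both genes A5-1 was the 1 animal of 14 dpi within the range of 42 dpi. Jun did not overlap, with 20.4 to 36.1 and 14.0 to 19.6 (-0.57 ± 0.15), just below the fold limit, and Jund differed by -0.44 ± 0.12. Corrected for length and GC content, neither Ier2 (-0.66, adjusted p = 0.0631) nor Junb (adjusted p = 0.107) was called, and 2 genes of the list were lower at an adjusted p under 0.05. The list median was -0.33 with this correction. It was -0.38 with the slope as a covariate, where no gene was called.

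Atf3, a transcription factor that marks injured neurons, fell by 1.31 ± 0.39 (adjusted p = 0.0273; exact permutation test, two-sided p = 0.0397). Its values of 0.3, 1.0, 1.7, 4.8 and 2.4 at 14 dpi and 0.5, 0.3, 0.5, 0.4 and 0.1 at 42 dpi were all low, and 1 of the 5 animals at 14 dpi, A5-1, lay within the later range. It was the only SDEG among 22 growth-associated genes, of which 2 (9.09%) were higher and 4 (18.2%) lower at an adjusted p under 0.05, against 7.74% and 6.24% of all genes. The tubulin genes Tubb2b (43.4 to 52.3, then 27.2 to 36.4, -0.58 ± 0.10, adjusted p = 0.00366) and Tuba1a (480.8 to 622.0, then 325.3 to 424.2, -0.54 ± 0.13) were lower without overlap. Dcx, a microtubule-binding protein of migrating neurons, was higher, at 6.3 to 9.6 and then at 10.2 to 14.8 (0.51 ± 0.14, adjusted p = 0.0181). Corrected for length and GC content, no gene of the list was higher at an adjusted p under 0.05 (0.110 for Dcx) and 4 were lower.

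Id1, an inhibitor of basic helix-loop-helix factors and a target of BMP signaling, was the only SDEG of 43 genes (2.33%, near the 2.06% of all genes) of the TGF-beta, BMP and activin pathway. It had 3.0, 5.3, 5.7, 5.3 and 6.0 and then 4.1, 4.0, 3.0, 2.1 and 2.3 (-0.63 ± 0.20, adjusted p = 0.0358). The receptor gene Bmpr2 was higher and did not overlap, with 182.1 to 244.8 and 266.7 to 297.9 (0.43 ± 0.09). The median of the pathway was 0.04. Id1 was not called after the correction for length and GC content (adjusted p = 0.0748), and neither Bmpr2 (adjusted p = 0.0678) nor any other gene of the pathway reached an adjusted p under 0.05.

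Output genes of the circadian clock and targets of the glucocorticoid receptor differed in a few members. Dbp, a transcription factor driven by the CLOCK:BMAL1 pair, had 26.5, 32.9, 29.4, 18.6 and 18.6 at 14 dpi and 9.9, 14.2, 15.1, 13.1 and 15.2 at 42 dpi (-0.85 ± 0.18, adjusted p = 0.00649). Npas2, a partner of BMAL1 that can replace CLOCK, had 3.3, 3.9, 3.1, 2.6 and 4.3 and then 6.9, 4.2, 5.0, 5.2 and 5.8 (0.59 ± 0.15, adjusted p = 0.0156), and was just under the fold limit after the correction for length and GC content (0.58). Ciart, a repressor of CLOCK:BMAL1, was lower without overlap (7.0, 9.5, 9.4, 6.8 and 6.8, then 6.3, 5.7, 4.4, 6.2 and 4.6; -0.50 ± 0.16, adjusted p = 0.0366) but below the fold limit. The call of Ciart was lost with that correction (adjusted p = 0.0910). Bhlhe40 differed by -0.30 ± 0.10. Over the 17 clock genes the median was -0.02. At an adjusted p under 0.05, 1 (5.88%, against 7.74% of all genes) was higher and 3 (17.6%, against 6.24%) were lower (1 and 2 genes with the correction). The hour at which each animal was killed is not given in the sources used here, so a difference in the hour and a difference in the phase cannot be told apart.

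CLOCK:BMAL1 binds the E-box CACGTG, which reads the same on both strands. The promoter window of Ciart is shown because it holds 3 copies, at -116, -58 and -44 from the start of transcription, more than any other clock gene here, while the window of Dbp held none. The window is that of RefSeq on GRCm38.p6, 250 bases before to 50 after the start, on the minus strand at chr3:95882179-95882478, with the E-boxes in capitals.
Ciart promoter window: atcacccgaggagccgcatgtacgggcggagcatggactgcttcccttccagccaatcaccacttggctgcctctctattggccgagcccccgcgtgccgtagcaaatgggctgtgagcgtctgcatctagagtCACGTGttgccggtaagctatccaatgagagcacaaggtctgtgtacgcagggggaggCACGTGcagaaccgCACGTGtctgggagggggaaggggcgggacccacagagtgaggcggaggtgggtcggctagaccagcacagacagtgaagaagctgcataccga
Of 15 clock genes with a window 5 held the E-box in at least 1 window. It occurred in 7.15% of all 32851 windows and in 11% of the 11804 genes measured here that had a window, and a match describes letters and not binding.

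Of 16 glucocorticoid-responsive genes 3 (18.8%, against 1.68% of all genes) were SDEGs, all higher at 42 dpi, and the median was 0.08. Zbtb16, a zinc finger transcription factor, had 15.1, 20.7, 14.9, 16.6 and 14.9 and then 23.0, 25.9, 29.3, 27.2 and 23.7 (0.64 ± 0.14, adjusted p = 0.00702). Pdk4, a kinase that shuts off pyruvate dehydrogenase, had 5.2, 6.3, 4.3, 6.5 and 6.0 and then 8.3, 7.2, 9.3, 9.1 and 11.3 (0.63 ± 0.12, adjusted p = 0.00384). Neither overlapped between the groups. Hif3a had 2.0 to 4.8 and 3.9 to 7.6 (0.72 ± 0.25, adjusted p = 0.0496). Zbtb16 and Pdk4 remained SDEGs after the correction for length and GC content, at 0.62 and 0.61, and Hif3a did not (adjusted p = 0.0854), nor with Rn18s-rs5 as a covariate (adjusted p = 0.0595).

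Genes of peptide and sensory neurons had lower means and varied widely. Calca, which encodes the peptide CGRP of primary afferents and motor neurons, had 9.5, 21.8, 31.7, 13.5 and 16.6 at 14 dpi and 7.1, 4.0, 7.2, 4.9 and 13 at 42 dpi, a fall of 1.30 ± 0.38 (adjusted p = 0.0259; exact permutation test, two-sided p = 0.0159). All 13 measured spinal neuropeptide genes had lower means (median -0.40), but Calca was the only one with an adjusted p under 0.05. Sst was at 9.0 to 10.5 and then at 5.4 to 8.0 (-0.46 ± 0.17, adjusted p = 0.0633). With the slope on transcript length as a covariate the median of the 13 genes was -0.13 and Calca was at -0.66. Markers of motor neurons moved in the same direction, 12 of 13 with a lower mean (median -0.52), none at an adjusted p under 0.05 by limma and 4 at an unadjusted p under 0.05, and their summed level of 361 to 842 at 14 dpi overlapped with that of 320 to 633 at 42 dpi. Prph, an intermediate filament of motor and sensory neurons, was at 21.8 to 81.4 and then at 12.9 to 42.0 (-0.99 ± 0.47, adjusted p = 0.140). The summed level of 4 measured sensory ganglion markers was 33.3 to 116 and then 19.3 to 56.7. The part of motor neurons or root tissue caught in the dissection in the fall of Calca was not tested.

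Neuronal identity genes gave no common direction. Of 14 general neuronal genes none was an SDEG, and 2 (14.3%, against 6.24% of all genes) were lower at an adjusted p under 0.05. They were Uchl1 (263.9 to 337.0, then 220.2 to 244.5, -0.40 ± 0.10) and Tubb3 (-0.44 ± 0.13), the latter not after the correction for length and GC content (adjusted p = 0.0678). Among 24 transcription factors of spinal interneurons 20 had a higher mean (median 0.16), and 6 (25%, against 7.74% of all genes) were higher at an adjusted p under 0.05. With the same correction these were 2 genes and a median of 0.09. The SDEG was Pax2, which specifies inhibitory neurons. Pax2 had 2.9, 2.8, 2.1, 2.3 and 2.9 and then 5.0, 3.9, 7.1, 3.9 and 2.8 (0.65 ± 0.22, adjusted p = 0.0425), so that A3-4 did not exceed the 14 dpi animals. The glycine transporter Slc6a5, a marker of glycinergic neurons, did not overlap, with 268.6 to 366.8 and 370.8 to 471.5 (0.44 ± 0.10). Zfhx3, a homeodomain transcription factor, had 28.4 to 38.7 and 40.8 to 63.6 (0.58 ± 0.13), just under the fold limit.

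Guidance and growth factor systems held no SDEG, and 7.74% of all genes were higher at an adjusted p under 0.05. Of 31 semaphorins, plexins and neuropilins 7 (22.6%) were higher and none lower at an adjusted p under 0.05, led by Plxna4 (100.9 to 129.8, then 141.1 to 158.9, 0.38 ± 0.08), a plexin receptor, and including the guidance cue Sema5a (0.48 ± 0.13). Of 38 ephrins, slits, netrins and their receptors 5 (13.2%) were higher and none lower, led by the ephrin receptor Epha5 (46.2 to 55.2, then 59.1 to 70.4, 0.38 ± 0.07). Of 25 neurotrophic factors and receptors 4 (16%) were higher and none lower, among them Ntrk3, the receptor of neurotrophin-3 (98.5 to 134.0, then 145.7 to 174.0, 0.53 ± 0.10, adjusted p = 0.00366), and Igf1r (0.37 ± 0.10). Of 22 Notch pathway genes 4 (18.2%) were higher and 1 lower, with Notch2 at 0.43 ± 0.11. Of 39 Wnt pathway genes 4 (10.3%) were higher and 2 (5.13%) lower, shares near those of all genes (7.74% and 6.24%). Of 14 perineuronal net genes 3 (21.4%) were higher, among them Tnr (0.40 ± 0.08) and Acan (0.39 ± 0.09). After the correction for length and GC content, 2 semaphorin and plexin genes, 5 ephrin system genes, 1 neurotrophic gene, 1 Notch gene, 1 Wnt gene and 2 perineuronal net genes were higher at an adjusted p under 0.05, and 2 Wnt genes and 1 perineuronal net gene were lower. Sema5a (adjusted p = 0.103), Igf1r (0.117) and Tnr (0.0519) were among those that lost their call.

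The genes that the study discusses as upregulated late, among them promoters and inhibitors of growth, were chosen on these animals, so that their direction is not independent evidence. Of 12 measured, 11 had a higher mean at 42 than at 14 dpi. At an adjusted p under 0.05, 3 (25%, against 7.74% of all genes) were higher, among them Pax2 and Plxna1 (54.0 to 64.0, then 66.5 to 87.0, 0.35 ± 0.10). Of 13 early inflammatory genes that it discusses none was called by limma, and 0 had an unadjusted p under 0.05. C1qc, of the first complement component, was at 11.4 to 14.9 and then at 8.5 to 11.7 (-0.34 ± 0.22, adjusted p = 0.281), Csf1r at 33.0 to 46.3 and then at 31.2 to 37.5 (-0.18 ± 0.12) and C4b at 11.2 to 22.7 and then at 15.6 to 35.3 (0.39 ± 0.37). Of the 4 clusters of genes that the study formed on the same animals, the largest with 644 genes held 100 SDEGs here, all higher at 42 dpi, and that with 253 genes held 7, all lower. The clusters of 19 and 39 genes held 2 that were higher and 2 that were lower, respectively.

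Of 14 homeostatic microglial markers 13 had lower means at 42 dpi, 2 (14.3%, against 6.24% of all genes) were lower at an adjusted p under 0.05, and the median was -0.18. Aif1, which encodes the microglial protein Iba1, had 1.7, 1.8, 1.2, 1.6 and 0.6 and then 1.0, 0.3, 0.5, 1.0 and 0.6 (-0.67 ± 0.22, adjusted p = 0.0402; exact permutation test, two-sided p = 0.0397). The call of Aif1 was lost after the correction for length and GC content (adjusted p = 0.0684) and with Rn18s-rs5 as a covariate (adjusted p = 0.0566), and Aif1 was an SDEG in 12 of 25 other fits. Tmem119 differed by -0.48 ± 0.14 (adjusted p = 0.0226, and 0.0668 with the correction, which left 1 of the 14 markers lower) and Cx3cr1 by -0.30 ± 0.11 (adjusted p = 0.0646). The summed level of the 14 markers was 179 to 221 at 14 dpi and 168 to 188 at 42 dpi and overlapped. Activated and phagocytic microglial genes (27 measured, median -0.20) had 1 gene higher and none lower at an adjusted p under 0.05. With the slope on transcript length as a covariate their median was 0.08. The 22 interferon-stimulated genes had none at an adjusted p under 0.05 by limma (median -0.02, with 3 at an unadjusted p under 0.05).

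Of 10 antigen presentation genes 1 was an SDEG, Ciita, the transactivator of MHC class II genes, at 1.1 to 2.0 and then at 1.6 to 4.5 (0.77 ± 0.20, adjusted p = 0.0176), and the MHC class I gene H2-D1 differed by -0.30 ± 0.10 (adjusted p = 0.0378, and 0.0933 with the correction). Reactive astrocyte genes had none at an adjusted p under 0.05 by limma (13 measured, median -0.05; 4 at an unadjusted p under 0.05). The heat shock gene Hspb1, among them, had 11.4, 15.6, 29.1, 16.5 and 18 and then 7.3, 5.7, 10.1, 9.3 and 14.8, a difference of -0.91 ± 0.32 (adjusted p = 0.0549). Among 19 homeostatic astrocyte genes 4 (21.1%, against 7.74% of all genes) were higher and 2 (10.5%, against 6.24%) lower at an adjusted p under 0.05. After the correction for length and GC content 1 was higher and 0 were lower. The SDEG was the sodium pump subunit Atp1b2 (93.5 to 175.1, then 172.8 to 280.4, 0.67 ± 0.16, adjusted p = 0.00946). The glutamate transporter Slc1a2 (1557 to 2040, then 2073 to 2417, 0.34 ± 0.09) and the bicarbonate transporter Slc4a4 (0.32 ± 0.07) did not overlap, but neither was called with the correction (adjusted p = 0.327 and 0.0798). Endothelial (18 genes), pericyte (10), fibroblast (11), ependymal (8), red blood cell (5) and pituitary (4) markers held no SDEG by limma. Their members with an unadjusted p under 0.05 were 3 endothelial, 2 pericyte and 1 fibroblast gene, of which 1 endothelial gene was higher at an adjusted p under 0.05, and none with the correction for length and GC content, quantile normalization or Rn18s-rs5 as a covariate. The pituitary hormone gene Prl, which differed widely between animals, was at 0.5 to 3.0 and then at 0.0 to 1.2 (-0.90 ± 0.74, adjusted p = 0.413).

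Mir6240, a miRNA locus, and Cdr1 rose at values that also varied with the ribosomal signal of the libraries. Mir6240 had 6.7, 13, 2.3, 3.9 and 26.1 at 14 dpi and 23.6, 25.1, 12.3, 17.9 and 36.0 at 42 dpi (1.48 ± 0.47, adjusted p = 0.0360; exact permutation test, two-sided p = 0.0714), and within both groups its highest value was in the animal with the most Rn18s-rs5. Libraries of fragmented total RNA are not made for mature miRNAs, so the value is taken as that of the locus. Whether its reads came from ribosomal RNA was not tested. The mature sequence annotated at the locus is shown, from RefSeq on GRCm38.p6 (chr5:114851973-114851998, plus strand), with bases 2 to 8, the seed, in capitals. It does not show that the mature miRNA was measured.
mmu-miR-6240: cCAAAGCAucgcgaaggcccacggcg
Cdr1, at the locus that also makes the circular RNA Cdr1as from the other strand, had 61.4, 114.4, 30.8, 34.6 and 143.9 and then 127.5, 119.7, 115.7, 104.7 and 161.4 (0.95 ± 0.29, adjusted p = 0.0289; exact permutation test, two-sided p = 0.0952). At 14 dpi it was highest in A6-3 and A5-3, the 2 animals with the most Rn18s-rs5, and reads of the 2 strands could not be told apart. With Rn18s-rs5 as a covariate both Mir6240 and Cdr1 were called again, as were 302 of the 350 SDEGs.

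Values at the other time points were set beside those at 14 and 42 dpi without a test of likeness, since these comparisons share animals. Bsn had a mean of 104 ± 19.6 (SD, n = 5) in sham animals, 77.5 ± 20.6 at 14 dpi, 185 ± 45.3 at 28 dpi and 153 ± 38.7 at 42 dpi. Relative to sham animals this was -0.43 at 14 dpi and 0.55 at 42 dpi, neither with an adjusted p under 0.05 (0.411 and 0.185), while 28 dpi exceeded 14 dpi by 1.26 (adjusted p = 3.52e-05) and 42 dpi differed from 28 dpi by -0.28 (adjusted p = 0.427). The mean of Bsn at 28 dpi was thus already above that at 42 dpi. Kmt2a followed the same order, at 75.5 ± 10.7 in sham animals, 64.4 ± 14.1 at 14 dpi, 118 ± 18.2 at 28 dpi and 107 ± 14.3 at 42 dpi. Rps27a had 46.2 ± 10.5 in sham animals, 63.2 ± 3.94 at 14 dpi, 37.7 ± 9.76 at 28 dpi and 39.1 ± 6.34 at 42 dpi. For these 3 genes the sham mean lay between those of 14 and 42 dpi.

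The means of other genes moved at different times. Pdk4 was at 6.26 ± 1.03 (SD, n = 5) in sham animals, 5.66 ± 0.907 at 14 dpi and 6.06 ± 0.802 at 28 dpi, and reached 9.04 ± 1.51 at 42 dpi, above 28 dpi by 0.53 (adjusted p = 0.0269). Jun stood at 23.3 ± 3.01 in sham animals, 24.8 ± 6.58 at 14 dpi and 22.8 ± 4.91 at 28 dpi and at 16.2 ± 2.15 at 42 dpi (-0.46 against 28 dpi, adjusted p = 0.0849). Calca was at 15.9 ± 8.55 in sham animals, 18.6 ± 8.58 at 14 dpi, 10.5 ± 3.20 at 28 dpi and 7.24 ± 3.51 at 42 dpi. Its differences were -0.74 from 14 to 28 dpi and -0.56 from 28 to 42 dpi. Dbp was at 18 ± 6.21, 25.2 ± 6.44, 16.6 ± 3.36 and 13.5 ± 2.18 in the same order, lower at 28 than at 14 dpi by 0.57 (adjusted p = 0.0128) and at 42 than at 28 dpi by 0.28 (adjusted p = 0.386). Zbtb16 was at 20.5 ± 3.76, 16.4 ± 2.49, 20.7 ± 3.12 and 25.8 ± 2.57.

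**Figure D5:**
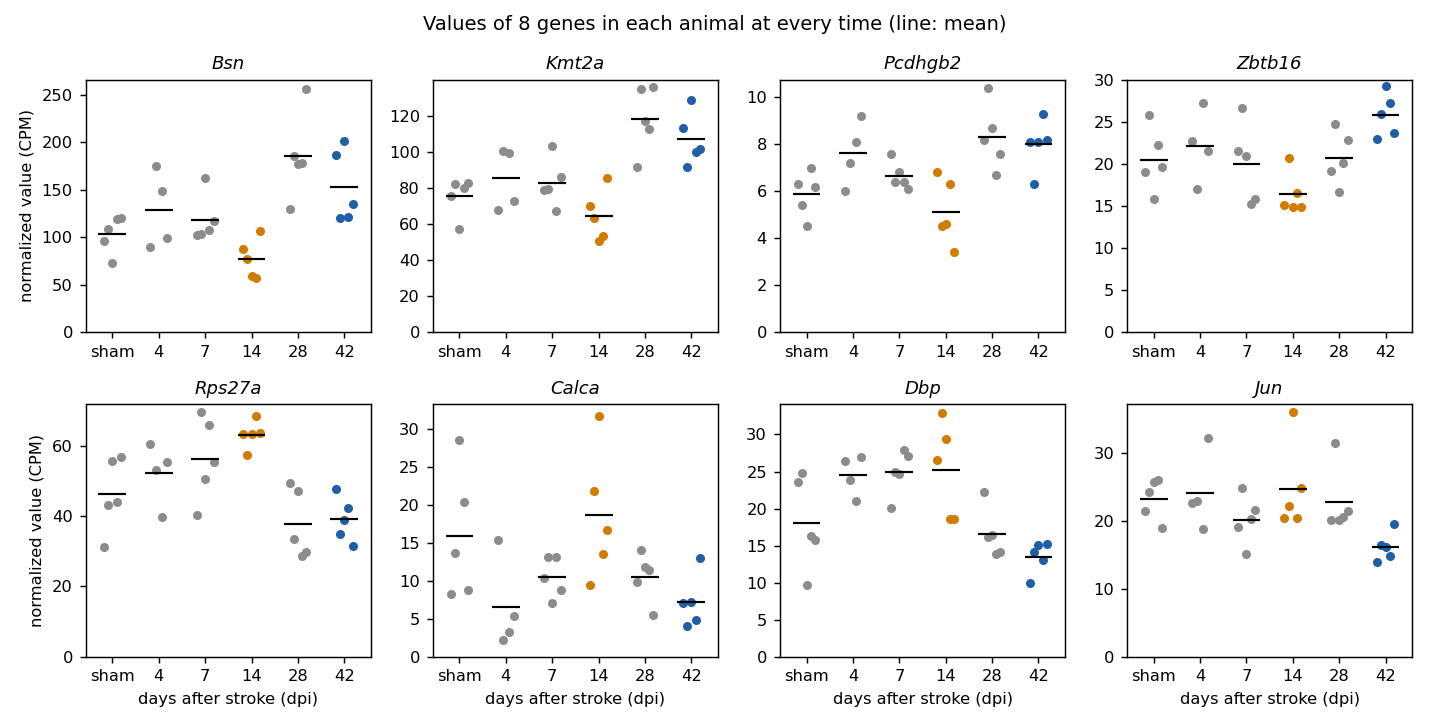
Normalized value in CPM (y axis, starting at 0) of 8 genes in each animal of the sham group and the 5 times after stroke (x axis, days; orange, 14 dpi; blue, 42 dpi; line, mean). The means of Bsn and Kmt2a are highest at 28 dpi (185 and 118), whereas the mean of Jun is 22.8 at 28 dpi and 16.2 at 42 dpi.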

How the data were processed

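Reads were quantified by the authors on the mouse transcriptome (mm10) with SALMON, summed per gene with Tximport and normalized with edgeR 3.14.0 under R 3.4.1 (the latter 2 versions per the submitters' processing notes), and the authors left out genes of low expression. The deposited score is this normalized CPM rounded to 0.1 for 16995 genes. It is no count and no read totals were used, so depth is unknown, and only the spread between animals gives the precision. Total RNA was depleted of ribosomal RNA (Ribo-Zero Gold) and fragmented before library preparation. The authors' comparison columns (fold changes, p-values and calls against Ctrl) were not used. Of 30 labelled animals, A9-3 of 4 dpi was not analysed here because no column matched it.

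Values were analysed as log2(value + 0.5) in 1 limma 3.58.1 fit (R 4.3.3) with a mean-variance trend over 29 animals and 6 groups, without a filter, for the contrast 42 dpi minus 14 dpi, and the fit was tested on simulated data. Single values were compared with exact two-sided permutation tests over all 252 splits of the 10 animals. Per the study's methods, animals were allotted at random within blocks of surgery time, RNA was extracted from all samples simultaneously, and the sequenced animals were chosen from more operated ones by scores of lesion, motor deficit, dissection and RNA quality. Litters are not given in the sources used here, and p-values measure the spread between these animals. Lists carry no test. The comparison, the genes and the lists were chosen with earlier results of these data known, and antisense and pseudogene matches were taken out of the lists after their values were seen. Named were the 12 largest rises and falls among SDEGs without overlap, the 3 largest among predicted models, up to 4 genes of smallest p per list, genes discussed in the study, Rn18s-rs5 and Prl. Transcript lengths and gene types came from GENCODE M21 (99.6% of genes found), gene positions from the deposited table (mm10). Alternatives were other pseudocounts, a filter on the mean, other scalings, covariates, a random block for the label unit, other fold limits and leaving out animals.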

Additional observations from a re-analysis of the deposited data

Results flagged for a closer look

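In groups of 5 animals, the highest or lowest animal was compared with its neighbour by Dixon's ratio of the gap to the range of log2 values, and those above the critical value for 5 values are given. Chance gives such a ratio in about 1 in 20 groups, and 254 groups were examined. At 14 dpi A5-1 stood apart for Cyr61 (ratio 0.775, lowest), Id1 (0.816, lowest), Neurl3 (0.742, highest) and Gm26712 (0.715, highest), and A5-3 for Zbed6 (0.825, lowest). At 42 dpi A1-1 stood apart for Uchl1 (0.922, highest), Psma7 (0.726, highest) and Gm12481 (0.738, highest), A1-2 for Pllp (0.716, highest), A1-3 for Gm10359 and Gm12671 (0.798 each, highest) and for Gm26712 (0.753, lowest), and A1-4 for Psmd13 (0.731, lowest) and Kcna2 (0.739, lowest).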

How the results depend on the processing

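The 350 SDEGs (285 higher, 65 lower at 42 dpi) became 186 (147 and 39) with a pseudocount of 1, 175 higher and 104 lower with quantile normalization, and 12 (8 and 4) when every animal was scaled to the same sum with ribosomal RNA, where 630 genes had an unadjusted p under 0.05. The correction for length and GC content left 38 lower. No fold limit gave 2375 (1315 and 1060) and a limit of 2-fold 20 (12 and 8). Without the animal with the most Rn18s-rs5 in both groups there were 530 SDEGs, 450 of them higher. Leaving out each animal in turn gave 177 to 466 SDEGs, 138 to 378 higher and 39 to 90 lower: without A5-4 there were 177 (138 higher, 39 lower), without A6-2 227 (173 higher) and without A1-3 215 (149 higher). In 2 alternatives chosen after seeing the data, leaving out A5-3 and A6-3 left 43 lower, and the slope on transcript length as a covariate left 1 SDEG (Gm13340), which rose, and 0 that fell. Under that covariate C1qc was at 0.13 and Tmsb10 at 0.054, in place of negative values. The causes were not tested. No paired analysis was possible because the 2 groups are different mice, each sampled once. Depth is unknown, and values near the rounding step of 0.1 carry little precision.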

Other observations

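Further genes were picked after their values had been seen and are given as values. The opioid receptor gene Oprm1 had 22.4, 18.2, 14.7, 16.6 and 19.1 at 14 dpi and 29.8, 30.1, 32.4, 28.9 and 29.2 at 42 dpi, a limma log2 fold change of 0.72 ± 0.13 (Benjamini-Hochberg adjusted p = 0.00366), and 0.75 after the correction for length and GC content. Nos1, the neuronal nitric oxide synthase, had 24.6 to 32.2 and then 38.6 to 54.0 (0.64 ± 0.14). Htr3a, a serotonin-gated channel of interneurons, fell by 0.75 ± 0.19 from 1.4 to 2.0 down to 0.3 to 1.5. Map1a, a microtubule-binding protein, had 920 to 1510 and then 1500 to 2290 (0.68 ± 0.15), and the endocytic receptor Lrp1 had 305.4 to 491.8 and then 505.8 to 705.7 (0.66 ± 0.13). After the correction for length and GC content Nos1 (0.50), Map1a (0.51) and Lrp1 (0.47) were below the fold limit.

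The largest protein-coding fall apart from predicted models was that of Cyr61, a matricellular protein and target of YAP, with 2.2, 6.6, 8.9, 8.7 and 8.1 at 14 dpi and 2.2, 1.0, 2.0, 0.4 and 1.6 at 42 dpi (-1.91 ± 0.45, adjusted p = 0.00924). Its sham mean was 5.62 ± 0.68 (SD, n = 5) and its 28 dpi mean 4.34 ± 2.96. Ptgds, the prostaglandin D synthase of oligodendrocytes and meninges, had 261.2 to 320.1 and then 176.8 to 205.1 (-0.62 ± 0.12, adjusted p = 0.00425), and Tmsb10, which binds actin monomers, 27.4 to 36.0 and then 17.3 to 22.6 (-0.61 ± 0.21, adjusted p = 0.0464). After the same correction Ptgds was at -0.48, below the fold limit, and Tmsb10 was not called (adjusted p = 0.0856), nor was it with Rn18s-rs5 as a covariate (adjusted p = 0.0647), and Tmsb10 was an SDEG in 8 of 25 other fits.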
